A study of Homo sapiens with 26 samples.

Results

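The genes described here are 43 genes of cell proliferation, of which 13 act in DNA replication and 30 in mitosis and its checkpoint. They were chosen by name, with earlier results of these data known. Each gene was represented by the probe-set of highest mean over the panel among those annotated with that gene symbol alone, and all 43 were measured, out of 19775 genes with a symbol on the array. Gene expression was measured on Affymetrix human genome arrays in 26 malignant human B-cell lines, 1 array a line, without any drug and in exponential growth. The panel held 12 lines grouped with multiple myeloma (MM), a tumour of plasma cells, and 14 grouped with diffuse large B-cell lymphoma (DLBCL), a tumour of mature B cells. The MM group included AMO-1, labelled as a plasmacytoma, and the DLBCL group included MC-116, labelled as an undifferentiated lymphoma. In separate dose response assays the lines had also been graded, with a few exceptions, for 3 drugs of the CHOP regimen, cyclophosphamide (C, given to cells as mafosfamide, which needs no activation by the liver), doxorubicin (H) and vincristine (O).

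A cell line is a clonal or near-clonal culture of 1 patient's tumour, so the spread within a disease is the spread between cultures, and KMS-12-PE and KMS-12-BM came from 1 patient with MM. All values are log2 expression values, which ran from 2.41 to 15.09 over the panel, with array medians between 5.65 and 5.72. The disease labels were checked against markers. All 7 B-cell markers tested, among them PAX5 and MS4A1, were lower in MM lines and 6 of 8 plasma cell markers, among them SDC1 and PRDM1, were higher, while none of the 5 T cell, 5 myeloid and 6 stromal or endothelial markers passed the test. The 3' minus 5' difference of the actin control probe-sets, a measure of RNA or labelling quality, averaged 0.27 ± 0.11 in MM lines and 0.17 ± 0.10 in DLBCL lines (SD, n = 12 and 14), and the gene comparison with this measure as a term is given below. Its part in the results was otherwise not tested. Serum in the medium was 20% for 5 MM and 3 DLBCL lines, 15% for 2 DLBCL lines and 10% for the rest, and 1 line of each disease grew in IMDM in place of RPMI. The study lists human serum for OCI-Ly3, a DLBCL line in the 20% group, and fetal calf serum for the other lines.

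A cell that commits to division first copies its DNA and then separates the copies. Cyclin E, made by CCNE1 and CCNE2, and the transcription factor E2F1 drive entry into the phase of DNA synthesis. CDC6 loads the ring-shaped MCM helicase onto origins, the MCM ring unwinds the DNA, and PCNA clamps the polymerases to it, while RRM2 and TYMS supply the nucleotides. Later in the cycle FOXM1 and MYBL2 switch on the mitotic genes. CDK1 with cyclins A and B then starts mitosis, Aurora and Polo kinases build and correct the spindle, and the spindle checkpoint (TTK, BUB1, BUB1B, BUB3 and MAD2L1) holds back CDC20 and the anaphase-promoting complex until every chromosome is attached. Because these genes are transcribed mainly in dividing cells, their levels in a culture follow both the share of cells in each phase and the RNA per cell. In bulk samples such as these, fewer cells of a phase and less RNA per cell cannot be told apart.

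All 43 genes were well expressed. The dimmest, by mean over the panel, lay at the 84.5th percentile of all probe-sets. The lines were ranked by the module score, which is the mean over the 43 genes of each gene's deviation from its mean over the panel, in log2 units. The score ran from 0.51 in the DLBCL line SU-DHL-8 to -1.17 in the MM line RPMI-8226. The first 9 ranks were all held by DLBCL lines, in the order SU-DHL-8 (0.51), OCI-Ly7 (0.48), SU-DHL-5 (0.45), FARAGE (0.43), OCI-Ly19 (0.41), OCI-Ly3 (0.31), U2932 (0.31), HBL-1 (0.19) and RIVA (0.19). The next 6 were MM lines close together, KMS-12-PE at 0.14 and OPM-2, MM1S, KMS-11, KMS-12-BM and AMO-1 between 0.09 and 0.04. The 5 lowest DLBCL lines were MC-116 (0.04), NU-DHL-1 (0.03), DB (-0.20), NU-DUL-1 (-0.23) and SU-DHL-4 (-0.31). The MM lines U-266 (-0.06) and KMM-1 (-0.13) lay among them, and the last 4 ranks were MM lines, MOLP-8 (-0.40), NCI-H929 (-0.65), LP-1 (-0.69) and RPMI-8226 (-1.17).

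**Figure D1:**
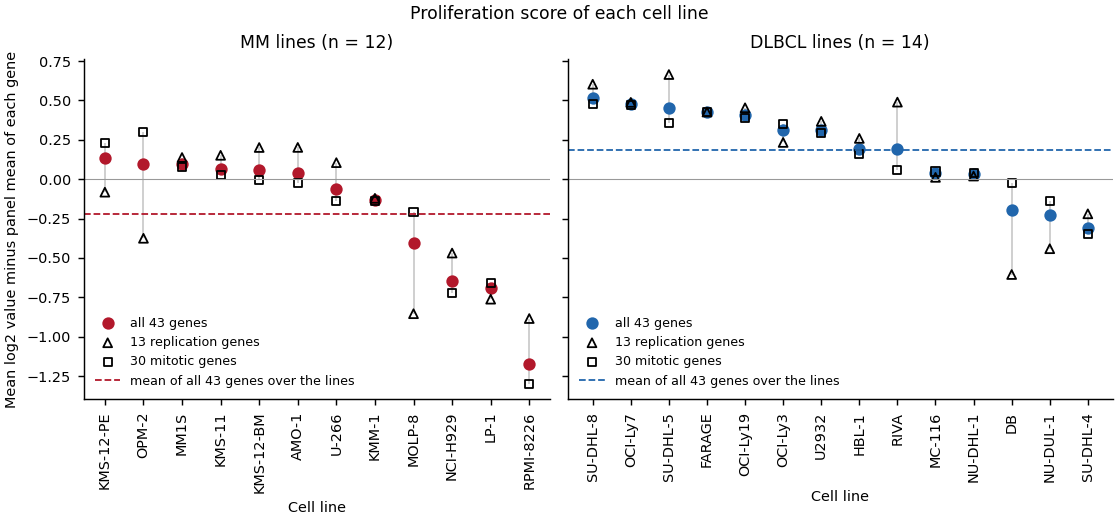
Score of each line in log2 units, as the mean deviation from the panel mean over all 43 genes (filled points), the 13 replication genes (triangles) and the 30 mitotic genes (squares), with MM lines in the left panel, DLBCL lines in the right panel and a dashed line at the mean of each disease. The MM mean is -0.22 and the DLBCL mean 0.19, and RPMI-8226 at -1.17 stands apart from the rest.

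Neighbours in this order mostly differed by little. Between ranks 1 and 5 no step exceeded 0.04, and the widest step in the whole order, 0.48, separated RPMI-8226 from LP-1. RPMI-8226 had the lowest value of the panel in 19 of the 43 genes and lay above the panel mean in 1. At the other end, OCI-Ly7 lay above the panel mean in 41 genes. Choosing the probe-set of largest SD for each gene kept the order nearly unchanged (Spearman's rho 0.99 over 26 lines), as did taking the median over the 43 genes in place of the mean (rho 0.97), and RPMI-8226 was lowest either way.

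The score averaged -0.22 ± 0.42 in MM lines and 0.19 ± 0.28 in DLBCL lines (SD, n = 12 and 14). Every MM line lay below the DLBCL median of 0.25, 4 MM lines lay below the lowest DLBCL line, and 9 DLBCL lines lay above the highest MM line. The difference of -0.41 ran from -0.44 to -0.32 when each line was left out in turn. By serum, MM lines averaged -0.16 ± 0.34 in 20% serum (n = 5) and -0.26 ± 0.49 in 10% (n = 7), while DLBCL lines averaged 0.19 ± 0.34 in 20% (n = 3), -0.10 ± 0.19 in 15% (n = 2) and 0.25 ± 0.26 in 10% (n = 9). Within both 10% and 20% serum the MM mean was thus the lower, with OCI-Ly3 of the 20% DLBCL lines in human serum. The module score correlated with the actin 3' minus 5' difference at r = -0.41 over the 12 MM lines and -0.28 over the 14 DLBCL lines, given as a description of arrays that share both measures.

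Expression of each gene was then compared between the diseases with limma over 33297 probe-sets. Of the 43 genes 8 (18.6%) were lower in MM lines at an adjusted p under 0.05 and 0 were higher. AURKB, CDK1, MCM3, MCM5, PCNA, BUB1B, CCNE1 and CDC20 were the 8, with differences of -0.53 to -0.97, that is 1.45 to 1.96 times higher in DLBCL lines. Of all probe-sets 5.4% were called lower and 5.49% higher, and of the 6091 probe-sets at least as bright as the dimmest of the 43 genes 8.9% were called lower. At an unadjusted p under 0.05, 21 genes (48.8%) were lower and 0 higher, against 13.6% lower and 11.3% higher of all probe-sets, and 19.6% lower of the bright ones. The estimate was below 0 for 39 genes (90.7%), against 55.1% of all probe-sets, and the median difference over the 43 genes was -0.37, against -0.02 over all probe-sets. The 43 genes moved together across lines (median r of 0.37 over their pairs, disease means removed), so these counts are not over separate observations. For every gene the MM and DLBCL lines overlapped. Only 0.18% of all probe-sets separated the groups fully.

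**Figure D2:**
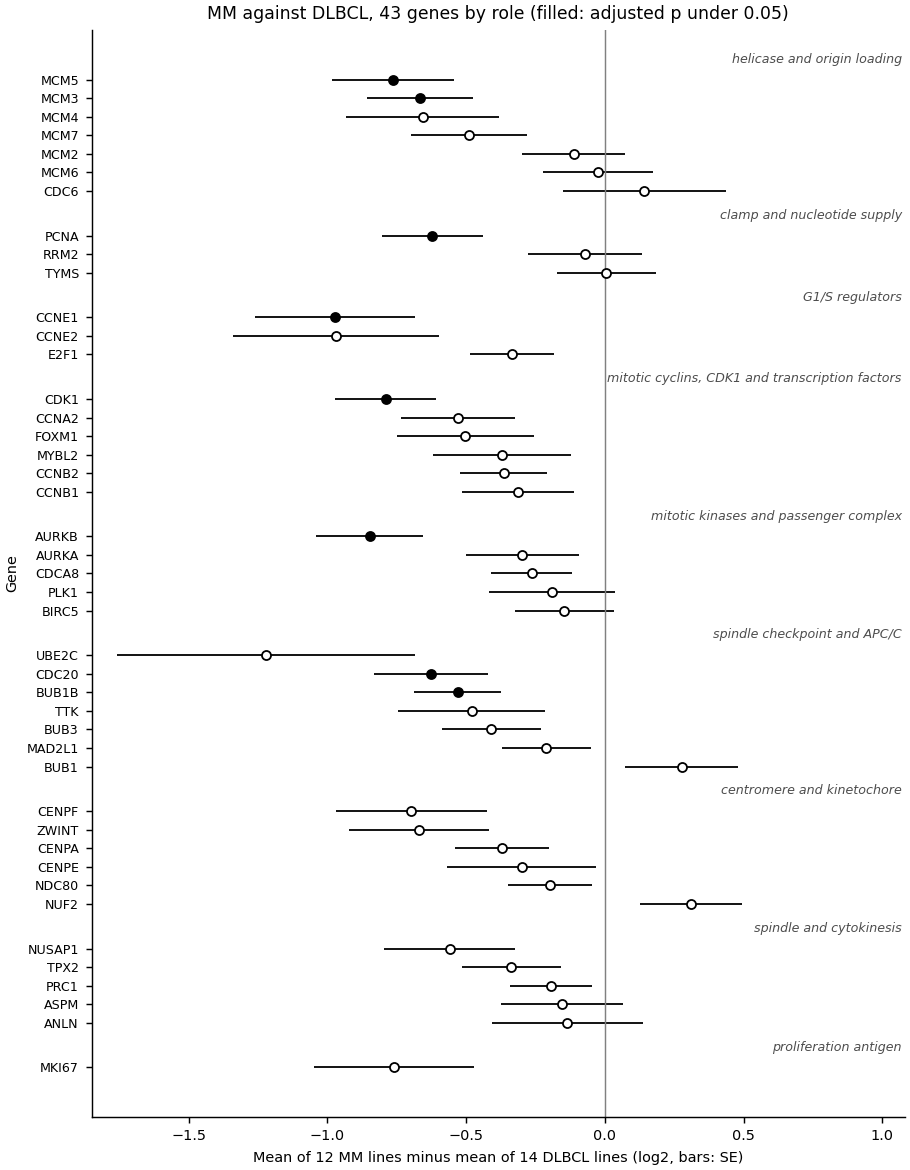
Difference of MM minus DLBCL for each of the 43 genes (log2 units, error bars are SE from limma), grouped by role, with filled marks for an adjusted p under 0.05. Of the 43 estimates 39 lie below 0 and the 8 called genes range from -0.97 to -0.53.

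The number of calls changed with the setting, while the median kept its sign in all 37 alternatives. With the actin 3' minus 5' difference as a term, an alternative chosen after the data were seen, AURKB and CDK1 alone stayed called out of the 8. These 2 of 43 genes are a share near the 4.14% of all probe-sets called lower. The median difference was -0.30 and 35 genes lay below 0. At an unadjusted p under 0.05 in limma, in either direction, 9 genes passed in place of 21, against 3502 higher and 4048 lower of 33297 probe-sets. With only the lines grown in RPMI, AURKB and CDK1 again were the 2 called, also a share near the 4.69% of all probe-sets called lower. At that unadjusted p 13 genes passed, against 3680 higher and 4210 lower of all probe-sets. Without NCI-H929 5 genes were called, against 4.65% of all probe-sets called lower, with PCNA, BUB1B and CDC20 lost. More genes were called with the mean over the probe-sets of a gene (10, against 5.82% of all probe-sets) and without KMS-12-PE (9, against 5.17%). Without both lines of the KMS-12 pair 11 were called, against 5.34%.

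Among the genes that bring a cell into DNA synthesis, all 3 estimates were below 0, and 1 was called. CCNE1 ran from 6.98 in MOLP-8 to 9.39 in AMO-1 with a median of 7.90 in MM lines, against 7.79 to 10.66 with a median of 9.19 in DLBCL lines. Its difference was -0.97 (SE 0.29, adjusted p = 0.028), with 5 MM lines below the lowest DLBCL line. CCNE2 had nearly the same difference, -0.97 (SE 0.37, adjusted p = 0.095), with MM lines at 6.99 to 9.79 (median 8.16) and DLBCL lines at 7.98 to 10.73 (median 9.48). The wide spread of this cyclin, an SD of 1.06 in MM lines, was the second widest of the 43 genes. E2F1 differed by -0.33 (adjusted p = 0.17).

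Of the 7 helicase and origin genes, 2 were called lower in MM lines and the estimates of the others lay on both sides of 0. MCM5, a subunit of the helicase ring, ran from 10.00 to 11.36 with a median of 10.84 in MM lines, against 10.12 to 12.60 with a median of 11.64 in DLBCL lines. The difference was -0.76 (SE 0.22, adjusted p = 0.024), all 12 MM lines lay below the DLBCL median and 10 DLBCL lines lay above the highest MM line. MCM3, its neighbour in the ring complex, ran from 10.48 to 11.89 (median 11.13) in MM lines, against 10.73 to 12.71 (median 11.76) in DLBCL lines, a difference of -0.67 (SE 0.19, adjusted p = 0.024). The 6 ring subunits did not share a size of difference. MCM4 differed by -0.66 (adjusted p = 0.13) and MCM7 by -0.49 (adjusted p = 0.14), whereas MCM2 differed by -0.11 (adjusted p = 0.76) and MCM6 by -0.02 (adjusted p = 0.96). CDC6, which loads the ring, had an estimate of 0.14 (adjusted p = 0.81).

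The clamp and the nucleotide enzymes also parted. PCNA ran from 11.57 in NCI-H929 to 13.18 in KMS-12-BM (median 12.30) in MM lines, against 12.24 to 13.62 (median 13.04) in DLBCL lines, and was lower in MM by 0.62 (SE 0.18, adjusted p = 0.027). RRM2, the small subunit of ribonucleotide reductase, ran from 11.64 to 13.57 (median 12.46) in MM lines and from 11.70 to 13.19 (median 12.55) in DLBCL lines. Its difference of -0.07 (adjusted p = 0.87) changed sign under 6 other settings, from another probe-set to the loss of a single line. TYMS, thymidylate synthase, differed by 0.005 (SE 0.18, adjusted p = 0.99). Both enzymes reached above the highest DLBCL line in some MM lines.

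Among the mitotic cyclins, CDK1 and the transcription factors that switch them on, all 6 estimates were below 0 and 1 was called. CDK1, the kinase that drives entry into mitosis, ran from 9.68 in NCI-H929 to 11.62 in U-266 (median 10.65) in MM lines, against 11.10 to 11.98 (median 11.57) in DLBCL lines. Its difference of -0.79 (SE 0.18, adjusted p = 0.0050) was called in all 37 alternatives, and 9 of the 12 MM lines lay below the lowest DLBCL line, the most of any of the 43 genes. CCNA2, cyclin A, ran from 8.48 to 10.76 (median 10.18) in MM lines and from 9.63 to 11.07 (median 10.59) in DLBCL lines, a difference of -0.53 (adjusted p = 0.099). FOXM1 differed by -0.50 (adjusted p = 0.20), MYBL2 by -0.37 (adjusted p = 0.38), CCNB2 by -0.36 (adjusted p = 0.14) and CCNB1 by -0.31 (adjusted p = 0.35).

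The mitotic kinases and the chromosomal passenger complex gave 1 call among 5 genes. AURKB, the kinase of the passenger complex, ran from 8.23 in RPMI-8226 to 9.83 in AMO-1 (median 9.28) in MM lines, against 9.04 to 10.50 (median 9.99) in DLBCL lines. Its difference of -0.85 (SE 0.19, adjusted p = 0.0046) put all 12 MM lines below the DLBCL median. Its partners in the complex had smaller estimates, -0.26 for CDCA8 (borealin, adjusted p = 0.26) and -0.15 for BIRC5 (survivin, adjusted p = 0.66). The spindle pole kinase AURKA ran from 9.42 to 11.20 (median 10.19) in MM lines and from 9.54 to 11.25 (median 10.55) in DLBCL lines, a difference of -0.30 (adjusted p = 0.39). PLK1, Polo-like kinase, differed by -0.19 (adjusted p = 0.65). Choosing the AURKB probe-set of largest SD was the 1 alternative of 37 that lost its call (adjusted p = 0.12).

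In the spindle checkpoint and the anaphase-promoting machinery, 2 of 7 genes were called. BUB1B, the checkpoint kinase-like protein BubR1, ran from 9.40 in RPMI-8226 to 10.99 in KMS-12-PE (median 10.30) in MM lines, against 10.12 to 11.19 (median 10.89) in DLBCL lines, a difference of -0.53 (SE 0.16, adjusted p = 0.026). CDC20, the activator that the checkpoint holds back, ran from 8.99 to 10.85 (median 9.89) in MM lines, against 9.62 to 11.09 (median 10.42) in DLBCL lines. Its difference of -0.63 (SE 0.21, adjusted p = 0.049) was just past the threshold and missed it in 27 of 37 alternatives. UBE2C, the ubiquitin-conjugating enzyme of the complex, had the widest estimate of the 43 genes, -1.22 (SE 0.54), but an adjusted p of 0.15. That spread was set by 3 MM lines, RPMI-8226 at 6.60, U-266 at 6.76 and KMM-1 at 8.42, while the MM median was 11.42 and the highest MM line 12.06, against 10.62 to 12.56 with a median of 11.64 in DLBCL lines. BUB1, the kinase that recruits the other checkpoint proteins to kinetochores, had an estimate above 0 (0.28, adjusted p = 0.43), unlike TTK (-0.48, adjusted p = 0.27), BUB3 (-0.41, adjusted p = 0.15) and MAD2L1 (-0.21, adjusted p = 0.44).

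No gene of the centromere and kinetochore or of the spindle and cytokinesis was called, out of 6 and 5, with 3 and 1 of them lower at an unadjusted p under 0.05. CENPF, a kinetochore protein, ran from 8.37 to 11.12 (median 10.05) in MM lines and from 9.52 to 11.47 (median 10.64) in DLBCL lines (-0.70, adjusted p = 0.10). ZWINT, which joins checkpoint proteins to the kinetochore, ran from 9.52 to 11.75 (median 10.94) in MM lines and from 10.03 to 12.32 (median 11.76) in DLBCL lines (-0.67, adjusted p = 0.090). All 12 MM lines lay below the DLBCL median of ZWINT. Of the other kinetochore genes, CENPA differed by -0.37 (adjusted p = 0.17), the motor CENPE by -0.30 (adjusted p = 0.53) and NDC80 by -0.20 (adjusted p = 0.45). NUF2, which pairs with NDC80 in the microtubule-binding complex, had the estimate farthest above 0 of the 43 genes, 0.31 (adjusted p = 0.30).

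NUSAP1, a spindle protein, ran from 9.97 to 11.97 (median 11.07) in MM lines and from 10.45 to 12.11 (median 11.83) in DLBCL lines (-0.56, adjusted p = 0.14). TPX2, the activator of AURKA, ran from 9.76 to 11.67 (median 10.83) in MM lines and from 10.67 to 11.82 (median 11.09) in DLBCL lines (-0.34, adjusted p = 0.24). The spindle and midzone genes PRC1 (-0.19), ASPM (-0.15) and ANLN (-0.14) were nearer to 0, with adjusted p between 0.45 and 0.80. MKI67, the antigen used to count cycling cells in tumours, ran from 7.11 in RPMI-8226 to 10.98 in MM1S (median 9.81) in MM lines, against 9.46 to 11.11 (median 10.49) in DLBCL lines. Its difference of -0.76 (SE 0.29, adjusted p = 0.093) did not pass, though 11 of 12 MM lines lay below the DLBCL median.

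**Figure D3:**
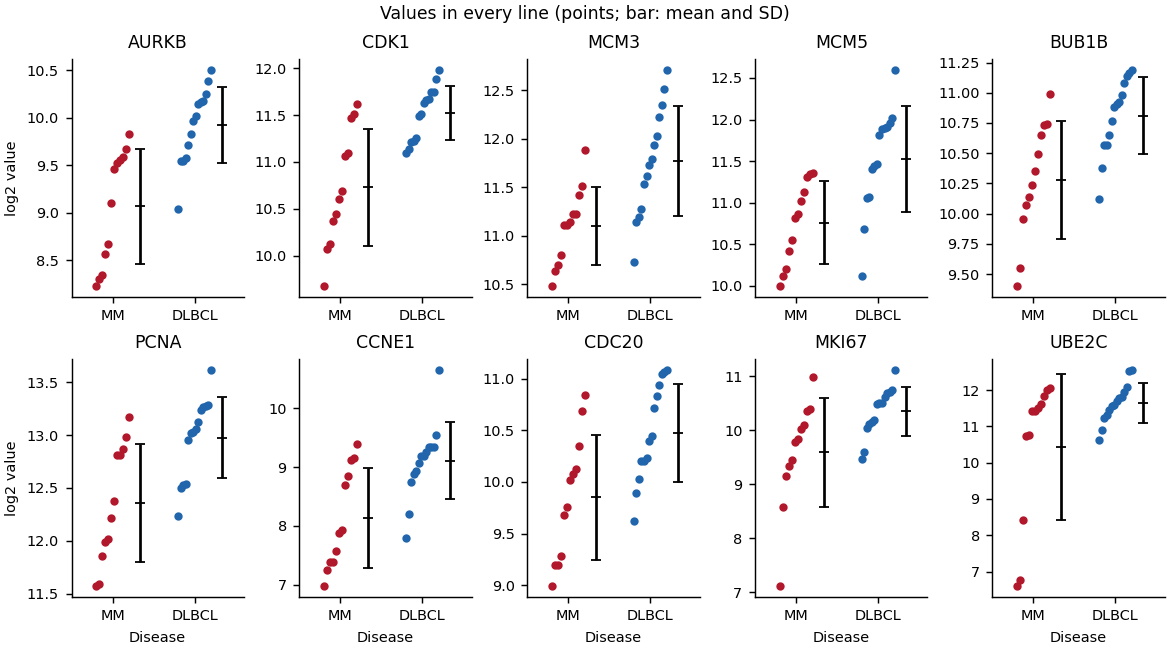
Log2 value of every line (points, low to high within a disease) and mean with SD (bar) for the 8 called genes and for MKI67 and UBE2C, MM lines left of DLBCL lines in each panel. The groups overlap in every panel, and the low MM values of UBE2C come from 3 lines at 6.60, 6.76 and 8.42.

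**Figure D4:**
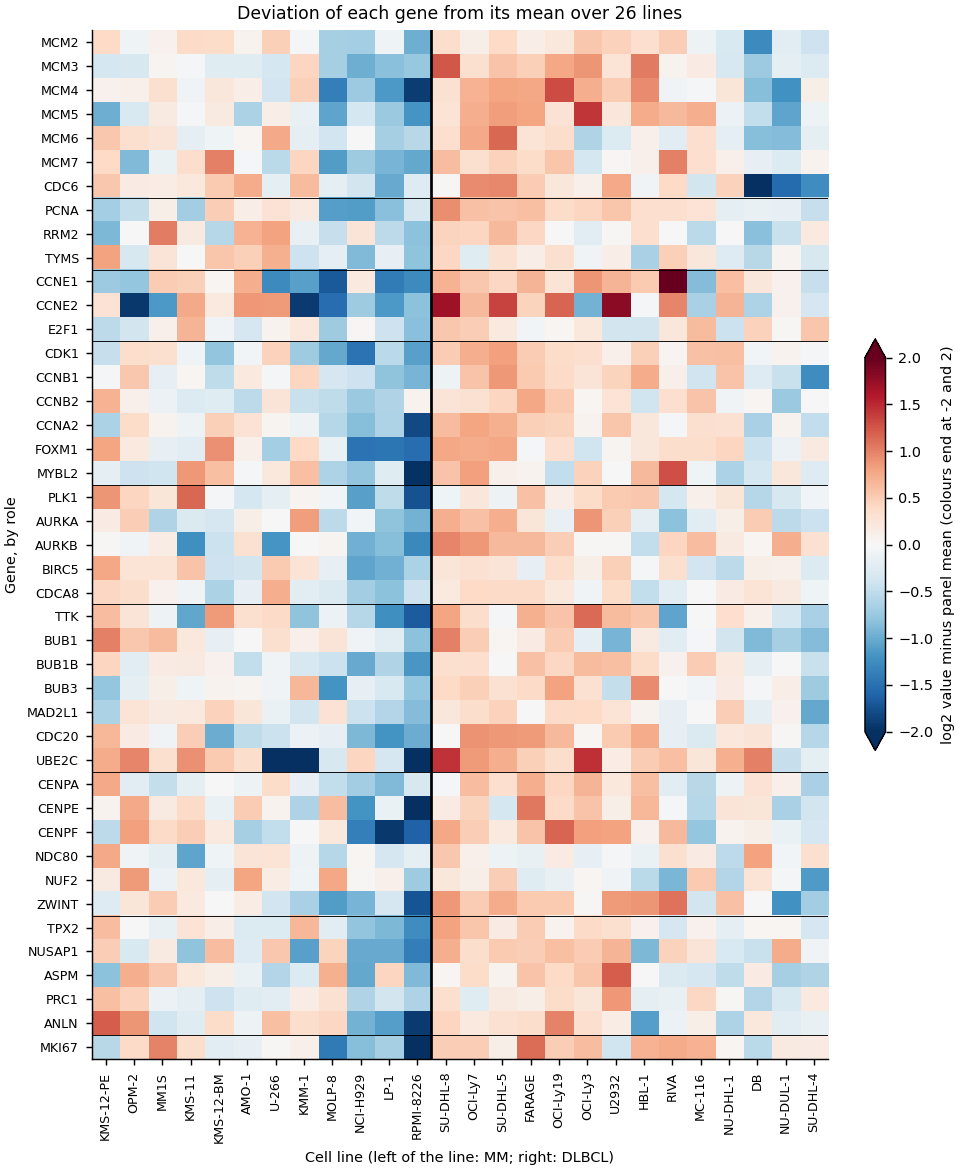
Deviation of each of the 43 genes (vertical, by role) from its panel mean in each line (horizontal, MM lines left and DLBCL lines right, each sorted by module score), in log2 units on a colour scale that is cut at its ends. RPMI-8226, LP-1, NCI-H929 and MOLP-8 lie above the panel mean in 1, 2, 7 and 10 of the 43 genes, and UBE2C is low in RPMI-8226, U-266 and KMM-1.

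Other genes of the same processes, from 2 lists of 38 replication and 44 mitotic genes outside the 43, were set beside them. Of the replication list 11 of 38 were lower in MM lines and 0 higher, with a median difference of -0.26 and 35 below 0. Of the mitotic list 8 of 44 were lower and 0 higher, with a median of -0.34 and 39 below 0. Of all probe-sets 5.4% were called lower, and 8.9% of the bright ones. At an unadjusted p under 0.05 the lists held 16 and 18 lower genes, and 1 higher, the mitotic gene CKS1B (0.39, adjusted p = 0.057), a small partner of the cyclin-dependent kinases. RFC3, a subunit of the clamp loader, averaged 9.48 ± 0.62 in MM lines and 11.02 ± 0.55 in DLBCL lines (SD, n = 12 and 14), the largest difference in both lists at -1.54 (SE 0.22, adjusted p = 4.54e-05). Of its partners RFC2 (-0.67) and RFC1 (-0.57) were called lower, and RFC5 (-0.29, adjusted p = 0.37) and RFC4 (-0.22, adjusted p = 0.51) were not called. UHRF1, which directs methylation of newly copied DNA, differed by -1.22 and CDC7, the kinase that fires origins, by -0.997. The helicase cofactors GINS2 (-0.80), GINS3 (-0.78) and CDC45 (-0.78), the origin protein ORC1 (-0.73), DNA ligase LIG1 (-0.71) and the single-strand binding protein RPA1 (-0.57) were the others. In the mitotic list PTTG1, securin, averaged 11.25 ± 0.60 in MM lines and 12.27 ± 0.47 in DLBCL lines (-1.01, SE 0.20, adjusted p = 0.0015). The other 7 were the centromere and kinetochore genes CENPC (-0.89), CENPK (-0.81), SKA3 (-0.79) and CENPM (-0.65), the microtubule genes HMMR (-0.84) and KIF2C (-0.72), and the phosphatase CDC25C (-0.47).

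The 43 genes moved together across lines. After the mean of each disease was removed, the median correlation over the 903 pairs of the 43 genes was 0.37 across the 26 lines, against 0.01 over all pairs of 5119 genes at least as bright. These are descriptions over lines that share 1 array for all genes. The tightest pairs were PLK1 with BUB1B (r = 0.85), TYMS with NUSAP1 (0.82) and CCNA2 with MAD2L1 (0.77), while MAD2L1 with NDC80 lay at -0.38. The genes that followed the mean of the others most closely were CCNA2 (r = 0.84), MCM4 (0.81) and BUB1B (0.80). At the other end NDC80 reached 0.02 and E2F1 0.22. The values moved when RPMI-8226 was left out, an alternative added after the data were seen. Without it, CCNA2 lay at 0.76, CDC6 was the highest at 0.77, UBE2C was at 0.12, E2F1 at 0.02 and NDC80 at -0.01.

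Outside the 43 genes and the 2 lists, the 10 genes whose levels followed the module score most closely across the 26 lines, disease means removed, were PLK4, the kinase that starts centriole copying (r = 0.91), ELAVL1 (0.89), the tubulins TUBA1B (0.88) and TUBA1C (0.87), the nuclear exporter XPO1 (0.86), the splicing factors SRSF3 (0.86) and SRSF7 (0.84), the condensin subunit NCAPH (0.85), RBM14 (0.84) and the helicase DHX9 (0.83). Several of these act in RNA handling rather than in the cycle itself, and none was called between the diseases (adjusted p of 0.13 to 0.70).

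The replication and the mitotic genes were scored apart. Their scores correlated at r = 0.70 (rho 0.69) across the 26 lines with disease means removed, 0.68 over the 12 MM lines and 0.80 over the 14 DLBCL lines. The replication score averaged -0.23 ± 0.42 in MM lines and 0.20 ± 0.39 in DLBCL lines, and the mitotic score -0.21 ± 0.46 in MM lines and 0.18 ± 0.25 in DLBCL lines. Both were lower in MM by a like amount, -0.43 and -0.40. The mitotic minus the replication score averaged 0.02 ± 0.35 in MM lines and -0.01 ± 0.24 in DLBCL lines, a difference of 0.03 that ran from -0.03 to 0.08 when each line was left out.

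Single lines departed from this balance in both diseases. OPM-2 (0.67), MOLP-8 (0.65) and KMS-12-PE (0.31) among MM lines, and DB (0.58) and NU-DUL-1 (0.30) among DLBCL lines, had mitotic scores well above their replication scores. Both scores are deviations from panel means, not levels. RPMI-8226 (-0.41) in MM and RIVA (-0.43) and SU-DHL-5 (-0.31) in DLBCL had the reverse. OPM-2 thus ranked 7th of the panel in mitotic genes and 20th in replication genes, and RIVA ranked 12th and 3rd.

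Promoters were available for 33 of the 43 genes and were searched for letters known from cell cycle genes. Start regions of 300 bases, 250 before and 50 after the first listed start of each gene, were taken from RefSeq (GRCh38.p14) for those that matched. They were searched on both strands for the cell cycle homology region (CHR, spelled TTTGAA and also counted when spelled TTCGAA), the CCAAT box and E2F-type letters. The E2F-type letters were spelled TTCCCGC in one form, with TTGGCGC as the next form, then TTCGCGC as another form, and finally TTGCCGC. Read from the other strand, the CCAAT box can share its last letters with the second of these forms. The CHR was present in 18 of 23 mitotic genes (78.3%) and 1 of 10 replication genes (10.0%), against 16.6% of 27305 promoters. E2F-type letters were present in 8 of 23 mitotic genes (34.8%) and 8 of 10 replication genes (80.0%), against 13.1% of all. CCAAT was present in 17 of 23 (73.9%) and 7 of 10 (70.0%), against 35.7%, and CHR with CCAAT in 14 mitotic genes (60.9%) and 1 replication gene, against 6.58%. CCNE1, MYBL2 and CENPE held none of the 3 kinds. A match describes letters in a window and no more.

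The promoters of the 3 mitotic and 3 replication genes that followed the rest of the 43 most closely, among those matched, are shown to set the mitotic pattern beside the replication pattern, 5' to 3' on the gene's strand, with capitals for the letters searched on either strand. The mitotic genes come first. CCNA2 held a CCAAT box read on the other strand 56 bases before the start, and no CHR of these letters. BUB1B held a CHR 23 bases before the start, and ZWINT held a CHR 31 bases before it with 2 CCAAT boxes and 2 E2F-type matches farther up.
CCNA2 (chr4:121823834-121824133, minus strand): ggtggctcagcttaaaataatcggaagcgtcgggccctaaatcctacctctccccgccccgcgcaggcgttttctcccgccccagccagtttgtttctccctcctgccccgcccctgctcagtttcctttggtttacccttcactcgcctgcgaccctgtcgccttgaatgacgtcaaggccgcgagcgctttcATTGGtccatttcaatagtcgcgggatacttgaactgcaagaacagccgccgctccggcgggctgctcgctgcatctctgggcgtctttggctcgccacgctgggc
BUB1B (chr15:40160819-40161118, plus strand): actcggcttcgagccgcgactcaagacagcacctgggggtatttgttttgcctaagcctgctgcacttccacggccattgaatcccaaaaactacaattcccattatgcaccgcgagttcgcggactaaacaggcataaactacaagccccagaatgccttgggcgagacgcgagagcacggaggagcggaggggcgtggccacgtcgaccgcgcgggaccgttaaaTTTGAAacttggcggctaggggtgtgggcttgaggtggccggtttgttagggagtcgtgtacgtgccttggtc
ZWINT (chr10:56361210-56361509, minus strand): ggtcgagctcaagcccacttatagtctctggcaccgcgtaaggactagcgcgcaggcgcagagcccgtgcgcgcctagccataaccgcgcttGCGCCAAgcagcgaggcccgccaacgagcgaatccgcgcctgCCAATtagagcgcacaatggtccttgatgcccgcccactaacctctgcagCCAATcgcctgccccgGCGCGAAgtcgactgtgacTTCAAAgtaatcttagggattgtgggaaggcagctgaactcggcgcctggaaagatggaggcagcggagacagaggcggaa
The replication genes held E2F-type letters close to the start. In MCM2 they lay on both strands in 1 overlapping run that began 4 bases past the start. MCM3 held 3 E2F-type and 3 CCAAT matches, and CDC6 held 1 E2F-type and 3 CCAAT matches.
MCM2 (chr3:127598161-127598460, plus strand): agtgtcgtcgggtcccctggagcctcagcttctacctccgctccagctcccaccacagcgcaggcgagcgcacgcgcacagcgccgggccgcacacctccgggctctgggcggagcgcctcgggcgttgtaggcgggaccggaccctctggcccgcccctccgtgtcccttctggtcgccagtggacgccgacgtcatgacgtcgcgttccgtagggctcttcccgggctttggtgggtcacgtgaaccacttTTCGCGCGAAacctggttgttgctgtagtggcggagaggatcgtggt
MCM3 (chr6:52284693-52284992, minus strand): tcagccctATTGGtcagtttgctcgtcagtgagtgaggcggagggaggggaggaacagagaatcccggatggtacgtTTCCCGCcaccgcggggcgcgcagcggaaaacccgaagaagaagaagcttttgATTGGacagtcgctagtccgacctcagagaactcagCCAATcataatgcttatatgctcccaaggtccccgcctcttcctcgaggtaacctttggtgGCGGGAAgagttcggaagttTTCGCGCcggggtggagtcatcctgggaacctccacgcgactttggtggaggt
CDC6 (chr17:40287629-40287928, plus strand): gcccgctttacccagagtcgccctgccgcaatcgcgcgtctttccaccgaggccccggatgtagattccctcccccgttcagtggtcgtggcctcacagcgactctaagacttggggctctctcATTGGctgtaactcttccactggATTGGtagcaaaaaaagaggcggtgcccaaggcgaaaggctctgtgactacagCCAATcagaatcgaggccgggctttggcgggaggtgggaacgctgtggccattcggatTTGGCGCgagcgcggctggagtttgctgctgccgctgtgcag

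The 43 genes were next set against drug response within each disease. Response was given as AUC0, an area under the dose response curve that is high in resistant lines, and as the classes resistant, intermediate and sensitive, which split the lines of a disease by AUC0 into 3 nearly equal classes. Each class held 4 lines, or 5 for resistant and sensitive DLBCL lines with H. MC-116 and SU-DHL-4 had no grade for C, and NU-DHL-1 and SU-DHL-4 none for O. In all 18 fits, that is resistant minus sensitive lines and the slope on AUC0 for 3 drugs in MM, in DLBCL and as their difference, 0 of the 43 genes were called by limma. Few probe-sets of any gene were called either, 0.012% (MM), 0.00901% (DLBCL) and 0.00601% (their difference) by class of C, 0.003%, 0.0% and 0.015% by class of H, and 0.0% in each by class of O. By slope the shares were 0.0% in each for C, 0.018%, 0.0% and 0.0% for H, and 0.033%, 0.003% and 0.0% for O. The counts at an unadjusted p under 0.05 are given below for each drug, and no gene was called under any of the alternatives. Differences of class are in log2 units and slopes are in log2 units per 100 units of AUC0. Because the 43 genes moved together across lines, the counts of genes above or below 0 are not over separate observations.

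For C in MM lines, 1 gene was higher and 3 lower in resistant than in sensitive lines at an unadjusted p under 0.05, against 2.38% and 2.74% of all probe-sets. CCNE2, the cyclin E gene, was at 8.10 (RPMI-8226), 9.12 (KMS-12-BM), 9.77 (U-266) and 9.79 (AMO-1) in resistant MM lines, against 6.99 (OPM-2), 7.004 (KMM-1), 7.41 (MOLP-8) and 7.78 (MM1S) in sensitive MM lines. Every resistant line was above every sensitive line, a difference of 1.90 (SE 0.56, p = 0.0030, adjusted p = 0.66 in limma). It was the only gene of the 43 for which resistant MM lines were fully above, against 1.32% of all probe-sets, while CDC20 and PRC1 were fully below, against 1.39%. CENPF differed by -0.99 (p = 0.030) and ASPM by -0.80 (p = 0.038) in limma, both with adjusted p over 0.9. The AUC0 slopes named the same 3 genes, CCNE2 at 1.61 (p = 0.0092), ASPM at -0.77 (p = 0.030) and CENPF at -0.79 (p = 0.081) in limma, with 1 gene higher and 1 lower at that p, against 1.97% and 2.32% of all probe-sets.

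In DLBCL lines 0 genes passed the unadjusted p for the class of C, against 4.81% of all probe-sets, and 0 for the slope, against 4.95%. By class, the median over the 43 genes was -0.19 in MM lines and -0.01 in DLBCL lines, against -0.001 and 0.0006 over all probe-sets. The MM median was 0.08 without RPMI-8226 and -0.36 without MOLP-8, and the DLBCL median was 0.14 without DB. ASPM had the smallest p in DLBCL lines and a difference of 0.59 (p = 0.12), opposite in sign to that in MM lines. The test of MM minus DLBCL gave -1.39 for ASPM (SE 0.51, p = 0.013), 2.06 for CCNE2 (p = 0.018) and -1.21 for CENPF (p = 0.058) in limma, with 1 gene higher and 1 lower at that p, against 2.26% and 2.42% of all probe-sets, each with an adjusted p over 0.99. MAD2L1 (-0.37) and NDC80 (0.37) were next in DLBCL lines by class, and NDC80 (0.34), ASPM (0.44) and MCM6 (-0.41) had the smallest p for the slope, 0.078 to 0.12. The differences of slopes between the diseases were -1.22 for ASPM, 1.78 for CCNE2 and -0.97 for CENPF, with 1 gene higher and 1 lower at that p, against 2.2% and 2.27% of all probe-sets.

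Over the 12 MM lines the module score and AUC0 of C correlated at r = -0.08 (rho = -0.20), and its parts lay on either side, with the replication score at 0.26 and the mitotic score at -0.21. The mitotic minus the replication score correlated with AUC0 of C at r = -0.58 (rho = -0.75), at -0.76 without AMO-1 and MM1S, the lines farthest from the median AUC0, and between -0.73 and -0.43 when each line was left out. All 4 resistant MM lines lay between -0.41 and -0.21 on this measure, against -0.06 to 0.67 for the 4 sensitive ones. UBE2C, a mitotic gene that entered the score unscaled, was at 6.60 in RPMI-8226 and 6.76 in U-266, both resistant. It was at 8.42 in KMM-1, a sensitive line, with an MM median of 11.42. How far UBE2C alone set these values was not tested. In the 12 DLBCL lines the mitotic minus the replication score correlated with AUC0 of C at 0.28 (rho 0.13), and at -0.10 without DB. The MM value was the farthest from 0 of the 24 correlations computed, 4 scores with 3 drugs in 2 diseases, which are descriptions without a test.

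For H the medians of the 2 diseases lay on opposite sides of 0. In MM lines the median over the 43 genes of resistant minus sensitive was 0.28, with 33 of 43 above 0, 5 higher and 1 lower at an unadjusted p under 0.05, against 4.19% and 2.94% of all probe-sets. In DLBCL lines the median was -0.27, with 37 of 43 below 0 and 2 lower at that p, against 3.86%. The test of MM minus DLBCL had a median of 0.60, with 36 of 43 above 0 and 5 higher at that p, against 5.09% of all probe-sets, and 0 genes were called by limma. Over all probe-sets the medians were 0.04 in MM, 0.003 in DLBCL and 0.03 for their difference. Both lines of the KMS-12 pair are in the resistant MM class, and without them its median was 0.23. Without NCI-H929 that median was 0.11 and without MM1S 0.42, and the DLBCL median was -0.15 without SU-DHL-4.

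MCM7, a helicase subunit, was at 11.79 (KMS-11), 11.84 (KMS-12-PE), 11.86 (KMM-1) and 12.44 (KMS-12-BM) in resistant MM lines, against 10.31 (MOLP-8), 10.72 (NCI-H929), 11.30 (MM1S) and 11.40 (AMO-1) in sensitive MM lines. The classes did not overlap, and the difference of 1.05 (SE 0.25, p = 0.00031) had an adjusted p of 0.15 in limma, which ran from 0.10 to 0.85 over its alternatives. TPX2 was at 11.14, 11.29, 11.62 and 11.67 in resistant MM lines, against 10.22, 10.73, 10.79 and 10.86 in sensitive ones, also without overlap (0.78, p = 0.0060, adjusted p = 0.40 in limma). These 2 were the only genes of the 43 fully higher, against 2.64% of all probe-sets. FOXM1 differed by 0.89 (p = 0.025), with sensitive NCI-H929 at 8.03 and the 3 other sensitive lines at 9.35 to 9.61, against 9.30 to 10.43 in resistant lines. The highest resistant values of FOXM1 were 10.30 in KMS-12-PE and 10.43 in KMS-12-BM. These fits counted KMS-12-PE and KMS-12-BM, from the same patient, as separate lines. By slope, MYBL2 (0.94, p = 0.039), TPX2 (0.61, p = 0.075) and MCM7 (0.72, p = 0.077) had the smallest p in limma, and 1 gene was higher at that p, against 2.56% of all probe-sets.

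In DLBCL lines the checkpoint kinase BUB1 was at 8.91, 8.96, 8.98, 9.61 and 10.33 in resistant lines, against 9.47, 9.88, 10.01, 10.35 and 10.85 in sensitive lines. The classes overlapped, with a difference of -0.75 (SE 0.31, p = 0.024, adjusted p = 0.60 in limma). MCM3 differed by -0.62 (p = 0.041) and BUB3 by -0.56 (p = 0.057). MM minus DLBCL was 1.22 for MCM7 (p = 0.0013, adjusted p = 0.36), 1.0 for TPX2 (p = 0.0080) and 1.02 for MCM3 (p = 0.025) in limma. By slope MYBL2 was at 0.56 (p = 0.079), BUB3 at -0.36 and MAD2L1 at -0.30 in DLBCL lines, and CENPA (0.71), TPX2 (0.73) and AURKA (0.76) had the smallest p for the difference of slopes, 0.082 to 0.12. For these slopes 0 genes passed the unadjusted p in DLBCL lines, against 5.86% of all probe-sets, and 0 for the difference, against 5.08%. The module score and AUC0 of H correlated at r = 0.18 (rho = 0.32) over 12 MM lines, at 0.43 without MM1S and at 0.10 without KMS-11. Over 14 DLBCL lines r was -0.23 (rho = -0.26), with -0.41 without OCI-Ly7 and -0.15 without SU-DHL-4. Without OCI-Ly19 and FARAGE, the lines farthest from the median AUC0, the DLBCL r was -0.02.

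For O, the median of resistant minus sensitive was -0.20 in MM lines, with 33 of 43 below 0, and -0.14 in DLBCL lines, with 30 below 0. Over all probe-sets the medians were -0.02 in MM and 0.01 in DLBCL. RPMI-8226, the line of lowest score, is in the sensitive MM class, and without it the MM median was -0.52, while without OPM-2 it was -0.10. The DLBCL median was 0.02 without DB and -0.26 without MC-116. At an unadjusted p under 0.05, 3 genes were lower in resistant MM lines and 0 higher, against 2.35% and 2.12% of all probe-sets, and 0 passed in DLBCL lines, against 4.01%. The MM minus DLBCL difference had a median of -0.03, against -0.03 over all probe-sets, and 0 genes passed at that p, against 3.83%.

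CDK1 was at 9.68 (NCI-H929), 10.13 (MOLP-8), 10.45 (KMM-1) and 10.61 (LP-1) in resistant MM lines, against 10.07 (RPMI-8226), 11.47 (MM1S), 11.51 (OPM-2) and 11.62 (U-266) in sensitive MM lines. All sensitive lines but RPMI-8226 were above every resistant line, a difference of -0.95 (SE 0.29, p = 0.0034, adjusted p = 0.79 in limma). CCNB2, a B-type cyclin, was at 10.41, 10.57, 10.66 and 10.71 in resistant MM lines, against 11.04, 11.23, 11.26 and 11.42 in sensitive ones, without overlap (-0.65, p = 0.0065, adjusted p = 0.93 in limma). These values are of the brightest of its 3 probe-sets, and the difference ran from -0.72 to -0.03 over 37 alternatives. CCNB2 was also fully lower in resistant DLBCL lines, and in each disease it was the only gene of the 43 so placed, against 1.13% of all probe-sets in MM and 1.05% in DLBCL. CDCA8 differed by -0.69 in MM lines (p = 0.0095). In DLBCL lines the smallest p were those of MYBL2 (0.68), NDC80 (0.42) and MCM6 (-0.52), 0.11 to 0.12, and for MM minus DLBCL those of BIRC5 (-0.81), CDCA8 (-0.61) and CDK1 (-0.69), 0.077 to 0.10.

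The slope on AUC0 of O was below 0 for most genes in both diseases. AUC0 of O ran from 90 to 187 in MM lines and from 54 to 131 in DLBCL lines, so 100 units is more than either range. In MM lines it was below 0 for 40 of 43 genes with a median of -0.77 per 100 units, against -0.05 over all probe-sets, and all 13 replication genes were below 0. At an unadjusted p under 0.05, 7 genes were lower, against 2.81% of all probe-sets, and 0 were called by limma. CDCA8 had a slope of -1.18 (SE 0.34, p = 0.0020, adjusted p = 0.43), CDK1 of -1.35 (p = 0.0047, adjusted p = 0.56) and PCNA of -1.26 (p = 0.0057, adjusted p = 0.59) in limma. In DLBCL lines the median slope was -0.28 with 30 below 0, against 0.02 over all probe-sets, and it was -0.05 without DB and -0.48 without SU-DHL-8. Of single genes NDC80 (0.78), MCM4 (-1.36) and PRC1 (-0.73) had the smallest p, 0.053 to 0.095, so that 0 genes passed, against 4.66% of all probe-sets. The difference of slopes had a median of -0.38 (-0.72 without DB), against -0.07 over all probe-sets. BIRC5 (-1.53, p = 0.018), CDCA8 (-1.15, p = 0.026) and NDC80 (-1.20, p = 0.034) were first, with adjusted p over 0.99 in limma. At an unadjusted p under 0.05, 3 genes were lower, against 2.38% of all probe-sets.

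The module score correlated with AUC0 of O at r = -0.49 (rho = -0.46) over the 12 MM lines. The lines most resistant to O, LP-1 at an AUC0 of 187 and MOLP-8 and NCI-H929 at 149, had scores of -0.69, -0.40 and -0.65, against scores of 0.09, 0.09 and -0.06 in OPM-2, MM1S and U-266, which had AUC0 of 95, 90 and 90. The 4 intermediate lines, with AUC0 of 112 to 123, scored 0.04 to 0.14. By class the score averaged -0.47 in resistant, 0.08 in intermediate and -0.26 in sensitive MM lines, so it did not fall steadily with AUC0. RPMI-8226, a sensitive line with an AUC0 of 111 and the lowest score of all, stood apart from the other sensitive lines, and r was -0.845 without it. Without LP-1 r was -0.36, and without both LP-1 and MOLP-8 it was -0.31. In the 12 DLBCL lines r was -0.24 (rho = -0.16), and it was 0.05 without DB and -0.46 without SU-DHL-8.

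**Figure D5:**
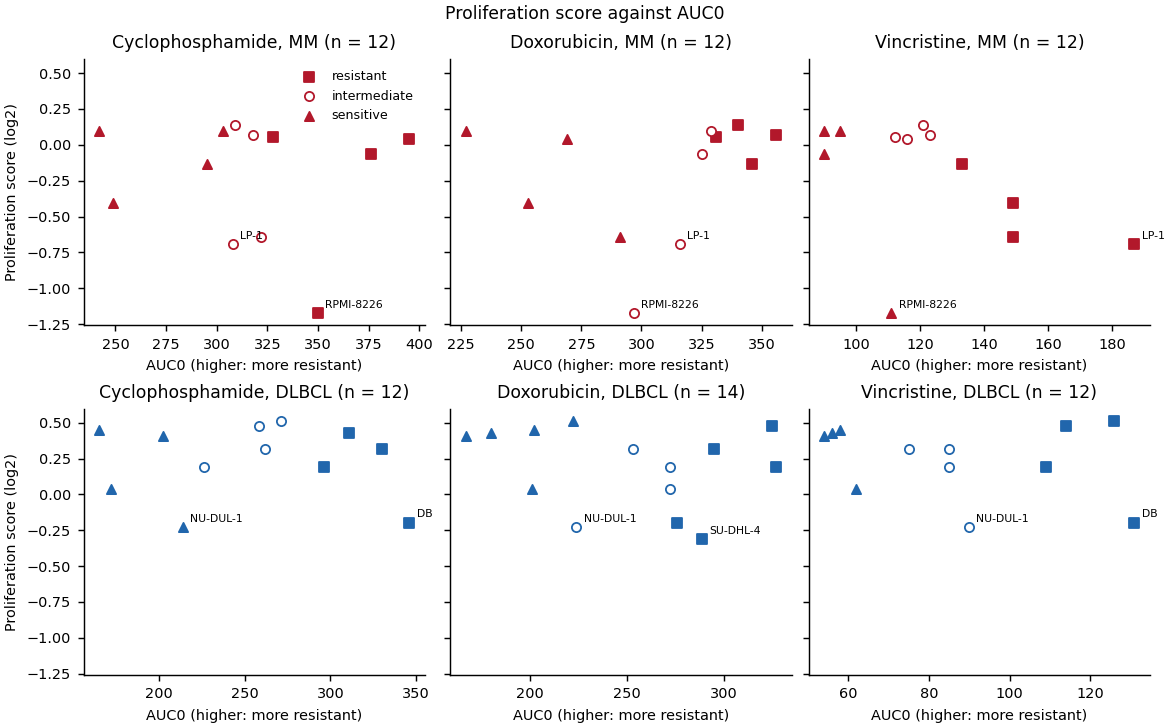
Module score (vertical, log2 units) against AUC0 (horizontal, higher in more resistant lines) for each drug, MM lines in the upper panels and DLBCL lines in the lower ones, with marks for the resistant, intermediate and sensitive classes. For vincristine in MM the resistant lines score -0.69 to -0.13 and the intermediate lines 0.04 to 0.14. The sensitive lines score -0.06 to 0.09, except for RPMI-8226 at an AUC0 of 111 and a score of -1.17.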

How the data were processed

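RNA of 26 untreated cell lines was hybridised to 1 array each. The deposited values are log2 expression per probe-set, which the authors normalised over the arrays by RMA with affy in R 3.0.1, per the labels and methods. Which arrays were normalised together is not given in the sources used here. Disease, drug class and AUC0 came from the labels, with AMO-1 counted as MM and MC-116 as DLBCL, as in the study's methods. The class for doxorubicin stands under a repeated cyclophosphamide tag and was read by its place among the tags. Of 54675 probe-sets, 41097 carried 1 gene symbol and were reduced to the brightest probe-set of each of 19775 genes. These, with 1801 probe-sets of several symbols and 11721 of none, made the 33297 tested, and 62 controls were left out.

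MM was compared with DLBCL, resistant with sensitive lines, and AUC0 within each disease, in limma 3.58.1 (R 4.3.3) with Benjamini-Hochberg adjustment over all 33297 probe-sets and a threshold of 0.05. Scores and correlations were computed in Python 3.11.15. Most named genes were fixed by rule. The rule covered all 43, with per-line values for the called genes, MKI67 and the 2 largest differences of each role. It also covered the 3 smallest p of each drug comparison and called genes of the other lists, up to a cap. Outside the rule, CKS1B, RFC4 and RFC5 were named though not called, and the called replication genes were named past the cap. The 43 genes, the lists and the tests were chosen with earlier results of these data known. The test code was checked on simulated data. A few genes of the wider lists were not analysed here.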

Additional observations from a re-analysis of the deposited data

Results flagged for a closer look

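In each class of 4 or 5 lines, the lowest or highest line was compared with its nearest neighbour by the share of the whole range that separates them. Of 129 groups of lines examined for the scores and named genes, 10 (7.75%) held a line past the critical value, and chance gives about 1 in 20. The groups share lines and genes, so these are not separate observations.

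RPMI-8226 accounted for 4. Its module score of -1.17 lay far below the other C-resistant MM lines (-0.06 to 0.06) and the other O-sensitive MM lines (-0.06 to 0.09). Its MKI67 value was 7.11, against 9.78 to 10.02 in the other C-resistant MM lines, and its CDK1 value was 10.07, against 11.47 to 11.62 in the other O-sensitive MM lines. Among MM lines graded for H, KMS-12-BM had MCM7 at 12.44, against 11.79 to 11.86 in the other resistant lines, and NCI-H929 had FOXM1 at 8.03, against 9.35 to 9.61 in the other sensitive lines.

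Among DLBCL lines, NU-DUL-1 had MKI67 at 10.18, against 10.61 to 10.7 in the other H-intermediate lines. NU-DHL-1 had a module score of 0.035, against 0.41 to 0.51 in the other H-sensitive lines. MC-116, labelled as an undifferentiated lymphoma, had a score of 0.038, against 0.41 to 0.45 in the other O-sensitive lines. SU-DHL-5 had MCM6 at 13.36, against 12.5 to 12.58 in the other O-sensitive lines. What set these lines apart was not tested.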

How the results depend on the processing

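The number of the 43 genes lower in MM was 8. It became 2 with RPMI-grown lines only, against 4.69% of all probe-sets. It was also 2 with the actin 3' minus 5' difference as a term (chosen after the data were seen), against 4.14%. When each line was left out it was 5 to 9, with 5 without NCI-H929. Under the other settings run it was 6 to 11, and the median difference stayed below 0 in all. CDK1 kept its call in all 37 alternatives and CDC20 lost it in 27. MKI67 passed in 1, without MM1S (adjusted p = 0.043). RRM2, at -0.07, turned to 0.15 with the probe-set of largest SD, 0.040 with the mean over probe-sets, 0.0069 without KMS-12-PE, 0.24 with the actin term, 0.067 without both KMS-12 lines and between -0.17 and 0.0069 when each line was left out. With both diseases pooled and a disease term, 1 estimate was shared by both diseases. For ASPM it was -0.10 by class of C, against 0.59 in DLBCL and -0.80 in MM lines. By slope on AUC0 of C it was 0.0089, against 0.44 in DLBCL and -0.77 in MM lines. Without the 2 lines farthest from the median AUC0, the mitotic minus replication score correlated at 0.41 with H in MM (all lines -0.02), at -0.22 with O in MM (all lines 0.14) and at -0.11 with O in DLBCL (all lines 0.26). In the 18 drug comparisons 0 genes were called under any setting. No paired analysis was possible because the labels carry no replicate numbers and each line is in 1 disease. The number of arrays limits the precision, the lines of a class being 4 or 5.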
